A study of Mus musculus with 43 samples.

Results

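The genes described here are 47 type I interferon-stimulated genes, chosen by name from a fixed list, and all 47 were found among the 23256 genes of the deposited table. Their levels were followed in mouse back skin, in poly-A RNA sequenced from 43 samples of female mice aged 10 to 13 weeks. The samples formed 9 groups, 3 strains crossed with 3 exposures to UVB, which is medium-wave ultraviolet light. NZM is the lupus-prone line NZM2328 of the series title. iNZM is not spelled out in the labels (in this field the name is used for NZM2328 mice that lack the type I interferon receptor), and the strain behind WT is not given. Acute UVB was a single dose of 300 mJ/cm2 and chronic UVB was 100 mJ/cm2 on each of 5 days. Skin was taken 24 hours after the last dose, and unexposed mice of each strain served as controls. Each group had 5 samples, except for 4 in iNZM without UVB and 4 in WT without UVB. The labels do not say that each sample is a separate mouse, so that the p-values below measure the spread between these samples, which may be partly technical.

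Type I interferons are cytokines made by cells that sense foreign or misplaced nucleic acid. They bind a receptor of the chains IFNAR1 and IFNAR2, whose kinases JAK1 and TYK2 phosphorylate transcription factors such as STAT2. STAT2 and IRF9 are subunits of the complex ISGF3, which binds a DNA element called the interferon-stimulated response element (ISRE) near the genes it turns on. The products of these genes sense viral RNA, block viral replication, modify other proteins, or feed back on the pathway. Raised levels of such genes in blood and skin are a known feature of human lupus, in which sunlight can provoke disease.

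The response element can be seen in the promoters of several members. RefSeq promoter sequences (build GRCm38.p6, from 250 bases before to 50 after the transcription start) were found for 35 of the 47 members. The letters GAAANNGAAA, or TTTCNNTTTC on the opposite strand, were searched in them, on both strands, with overlapping matches allowed. They were present in 15 of the 35 members (42.9%), against 3.99% of the 27025 genes with a promoter of the same length. No promoter entry was found for Parp14, Usp18, Dhx58, Rtp4, Zbp1, Mx1, Ly6a, Tor3a, Ifi27, Parp9, Mx2 or Ifi27l2a. The stretches below are from the genes with a match that were called lower in iNZM than in NZM after acute UVB, as described later. Isg15, which was not called, was added to them. They show single, paired and overlapping copies. Each is written 5′ to 3′ on the strand of its gene, with the matching letters in capitals.
Isg15: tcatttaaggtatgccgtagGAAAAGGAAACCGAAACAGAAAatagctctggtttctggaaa
Ifit1: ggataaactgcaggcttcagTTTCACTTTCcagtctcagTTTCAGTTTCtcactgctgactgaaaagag
Bst2: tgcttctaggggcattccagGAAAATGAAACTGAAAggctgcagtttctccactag
Rsad2: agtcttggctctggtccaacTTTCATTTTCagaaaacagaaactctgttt
Slfn8: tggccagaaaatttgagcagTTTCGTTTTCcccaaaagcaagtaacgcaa
Trim30d: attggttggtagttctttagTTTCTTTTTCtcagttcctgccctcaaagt
The Isg15 stretch (chr4:156200855-156200916 on the minus strand) holds 3 overlapping copies in a row, the first starting 78 bases before the start site. In Ifit1 (chr19:34640765-34640833 on the plus strand) there are 2 separate copies, and in Bst2 (chr8:71537567-71537622 on the minus strand) 2 that overlap. Rsad2 (chr12:26456543-26456592 on the minus strand), Slfn8 (chr11:83020829-83020878 on the minus strand) and Trim30d (chr7:104507861-104507910 on the minus strand) have 1 copy each. A match of letters is a description and not a bound site. Members with a match had a median log2 difference between iNZM and NZM of -1.88 after acute UVB, and the 20 without one had -1.55, with ranges that overlapped.

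All 47 members have a position in the GENCODE vM21 annotation of GRCm38, on 15 chromosomes. 18 of them lie in 7 clusters with gaps under 200 kb. The 4 Ifit genes stand together at chr19:34550694-34650009, Rsad2 and Cmpk2 at chr12:26442746-26479837, and Slfn5, Slfn8 and Slfn1 at chr11:82951349-83122670. Neighbours of the same family can share reads where their sequences are alike, so that the split between them is uncertain there. Such neighbours are Ifit3 and Ifit3b, the Schlafen genes, and Trim30a and Trim30d. How alike their sequences are was not examined. Exons of 15 members overlap another annotated gene, 10 of them on the opposite strand, including Dtx3l with Parp9. Whether strand was used in counting is not given in the sources used here, so reads of such pairs cannot be told apart. The annotation lists Mx2 as a polymorphic pseudogene.

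The deposited values are read counts divided by a size factor for each sample, called normalised read counts below. The libraries held 18.5 to 37.8 M reads. The tissue label was checked on 8 keratinocyte genes, none of which was at 0, with summed levels of 171787 to 2270270 over all libraries. Libraries differed strongly in 28 hair follicle genes. Their score, a mean of log2 levels centred per gene, was above 5 in 9 libraries, namely 1 of NZM and 2 of iNZM after acute UVB and 3 of NZM and 3 of iNZM after chronic UVB, with none of WT. Each count below that moved by more than 1.5 times without these 9 libraries is given with that value. As a check of the strain labels, Ifnar1, a receptor chain (ENSMUSG00000022967.13, chr16:91485238-91507441, plus strand), had 878 ± 126 normalised reads in NZM (SD, n = 15), 947 ± 189 in WT (n = 14) and 419.8 ± 85.5 in iNZM (n = 14). The gene was thus still read in iNZM, at a lower level, and counts per gene do not show whether part of it is deleted. In bulk skin, fewer cells of a type and less RNA per cell cannot be told apart.

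Across the 9 groups the members were lowest in iNZM and, for most, highest in WT. The iNZM mean was the lowest of the 3 strains for 46 of 47 members in each of the 3 regimens. WT had the highest mean for 39 members without UVB, 43 after acute and 38 after chronic UVB. Per kilobase of exon, the most abundant member in WT skin without UVB was Ifi27l2a, a small mitochondrial protein gene, at 7559 normalised reads per kb. Ly6a, the stem cell surface marker Sca-1, followed at 2228 and Bst2, a membrane protein that tethers budding virus, stood at 1341. At the low end was Phf11d at 2.67 per kb. In iNZM without UVB the order of the top genes was Ifi27 at 1124, Ly6a at 1076 and Ifi27l2a at 684 per kb. The heat map of group means shows this order of strains in most roles.

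**Figure D1:**
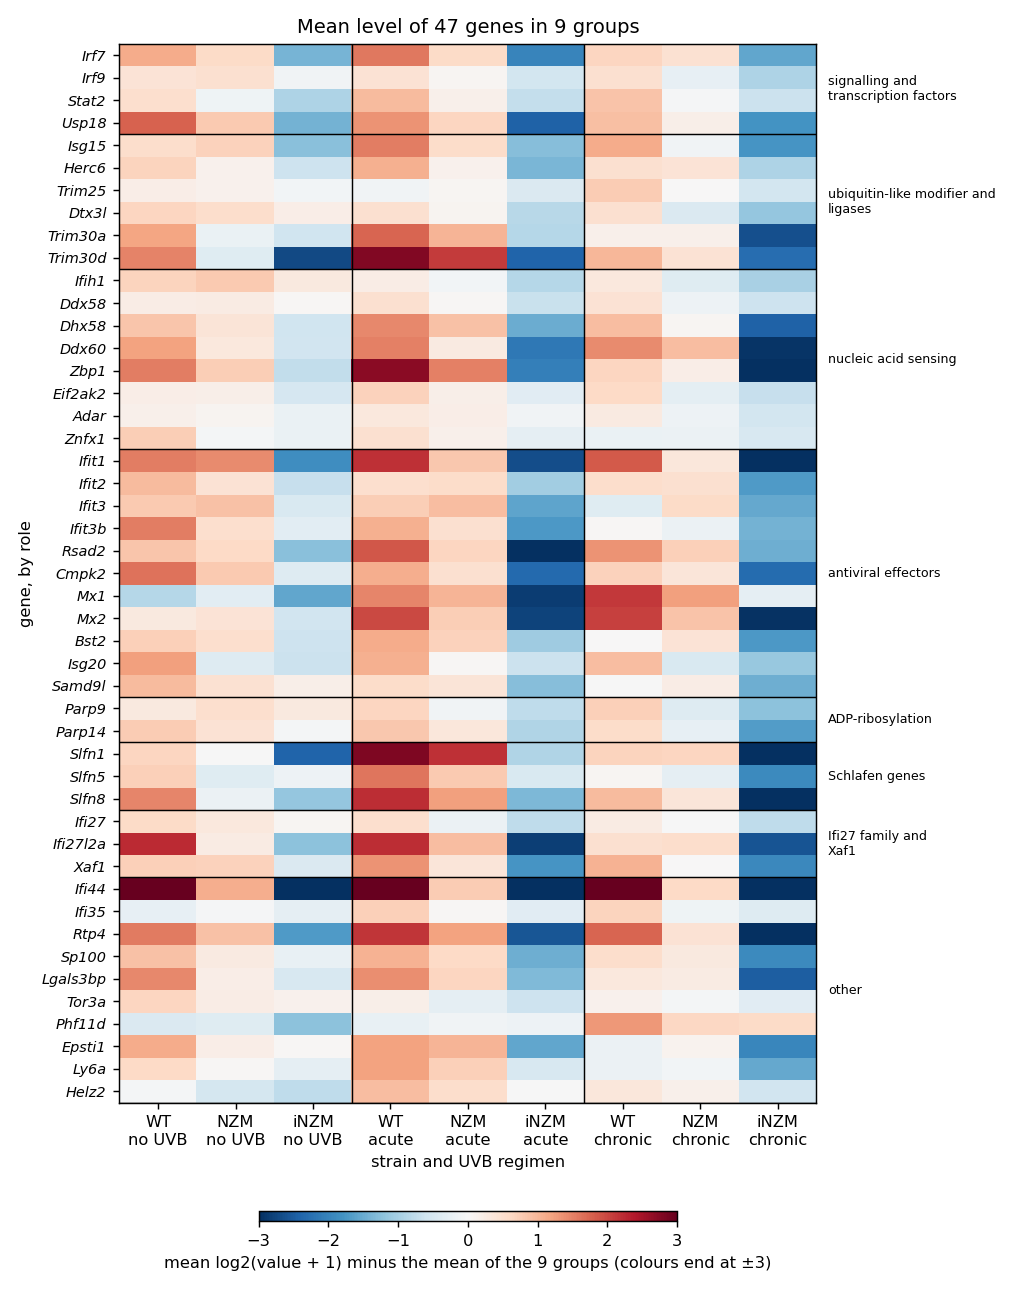
Rows are the 47 genes by role and columns the 9 groups, with colour giving the group mean of log2(value + 1) minus the mean of the 9 groups. The iNZM columns are the lowest of their regimen in nearly all rows, and the span between groups is widest for Ifi44 and Zbp1.

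The comparison of iNZM with NZM skin addressed which genes differ with the type I interferon receptor, as far as the name iNZM is used that way. Interferon-stimulated genes were lower in iNZM, by the most for Ifi44, and they made up 3 of 6, 17 of 43 and 19 of 82 of the genes that were called in the 3 regimens. Limma on log2(value + 1), with Benjamini-Hochberg adjustment over 19170 genes at 0.05, called 3 of the 47 members in unexposed skin, 17 in the acute and 19 in the chronic regimen, each of them lower in iNZM. Over all genes tested, 0.0313%, 0.224% and 0.428% were called, which is 6, 43 and 82 genes. The median log2 difference of the members was -0.80 without UVB, -1.82 after acute and -1.69 after chronic UVB, while that of all genes was between -0.01 and 0.0042. Differences below 0 were found for 46, 47 and 47 of 47, although those of Phf11d and Ifi35, nearest to 0, changed sign under some alternatives. Every iNZM library was below every NZM library for 12, 14 and 22 members, against 2.39%, 0.329% and 1.24% of all genes. Ifi44, Ifit1 and Usp18 were called in all 3 regimens. The calls after the acute and the chronic regimen shared 14 members, 14 of the 17 and of the 19. These 2 comparisons use different libraries but take the spread of each gene from the same fit, so their calls are not independent. EdgeR on the recovered reads called 3, 13 and 18 members, of 5, 32 and 48 genes in all.

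These counts depend on the fit, which takes the spread from all 43 libraries. With only the compared groups in the fit, limma called 0, 0 and 1 members, the last being Ifi44 with adjusted p = 0.00721, although the differences themselves were the same. Over all genes that fit called 16, 1 and 4, and 10 of the 16 without UVB were higher in iNZM. Ifi44 then had adjusted p = 0.101 without UVB and 0.0606 after acute UVB. Without the 9 libraries of high hair follicle score 11 members were called after acute and 5 after chronic UVB, of 27 and 26 genes in all. With the score as a term 29 members were called after chronic UVB, but among 455 genes, so that members made up 6.37% of the calls there against 23.2% without the term. Of the single libraries, the count after acute UVB became 10 without NZM acute UVB sample 1, 11 without NZM acute UVB sample 46 or 3, 8 without NZM acute UVB sample 47 and 11 without iNZM acute UVB sample 6 or 49. After chronic UVB it became 8 without NZM chronic UVB sample 54 and 11 without iNZM chronic UVB sample 24. Without UVB it became 1 without unexposed NZM sample 32, 34 or 35, 1 without unexposed iNZM sample 37, 38 or 39 and 0 without unexposed iNZM sample 40. All these calls were lower in iNZM.

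**Figure D2:**
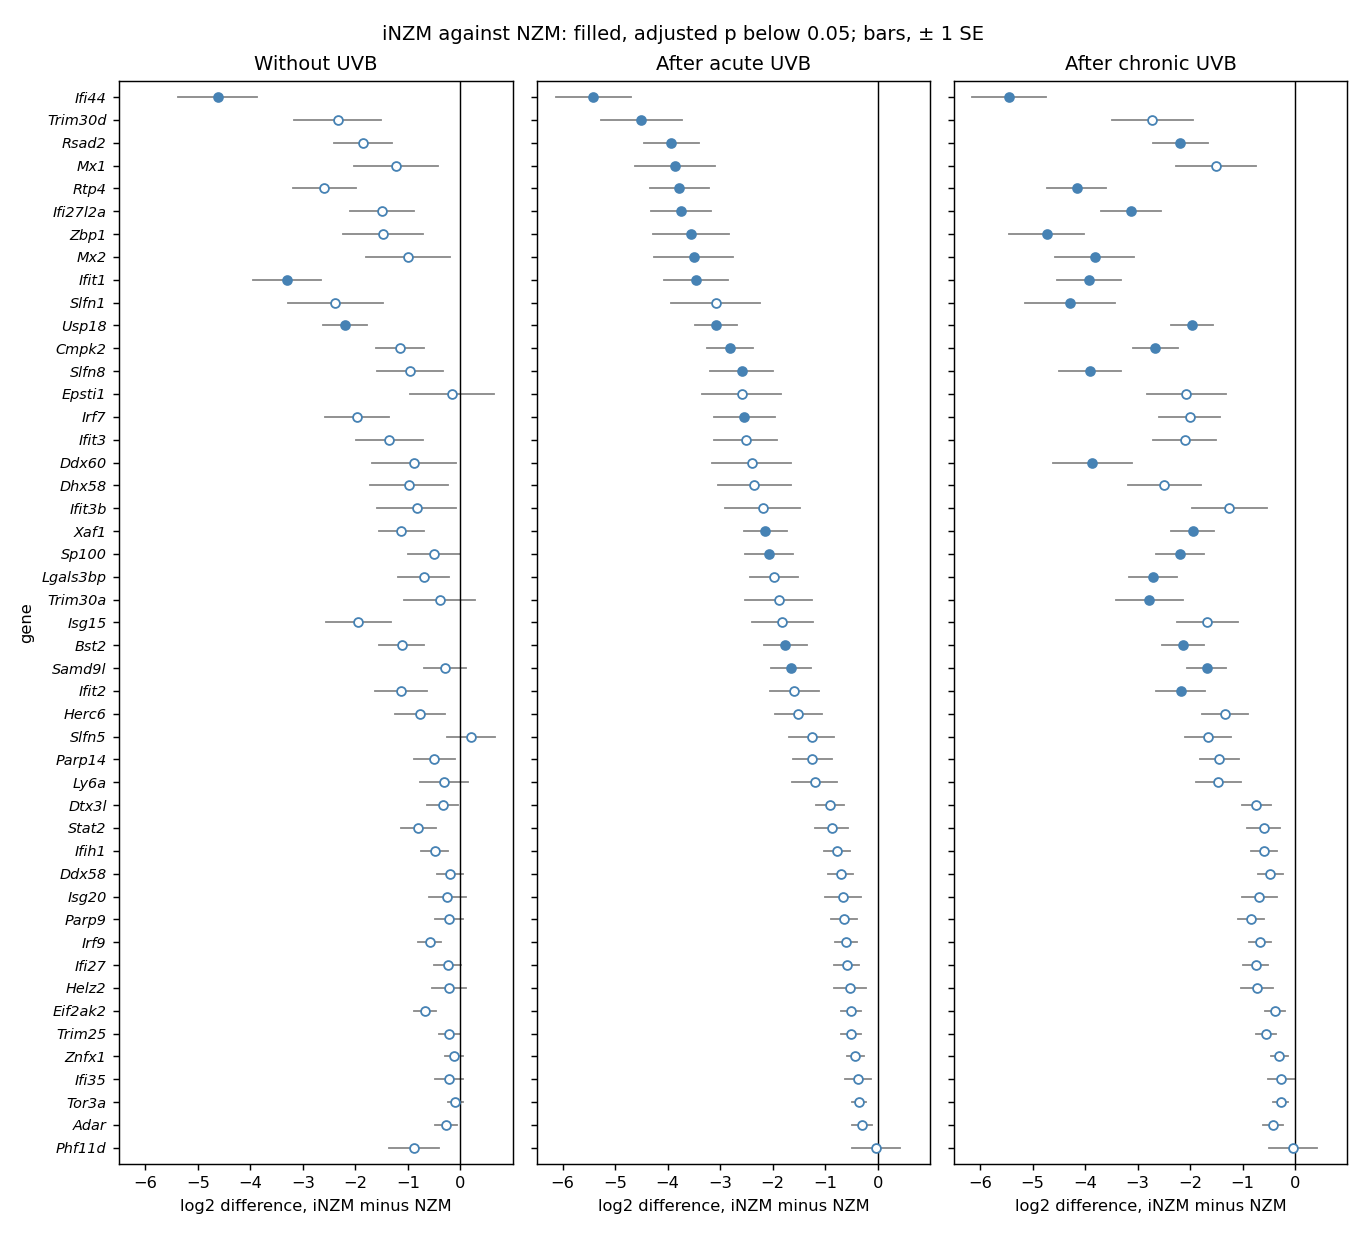
Each point is the log2 difference of 1 gene between iNZM and NZM (iNZM minus NZM, horizontal axis) with a bar of 1 SE to each side, for 3 regimens, ordered by the value after acute UVB. Filled points have a limma adjusted p below 0.05, which holds for 3, 17 and 19 of 47 genes, and nearly all points lie to the left of 0.

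Among the 4 signalling and transcription factor genes the median log2 difference between iNZM and NZM was -1.38, -1.71 and -1.31 in the 3 regimens. Of these genes only Usp18 was called in each regimen. Usp18 removes ISG15 from proteins and damps the receptor's signal (ENSMUSG00000030107.10, chr6:121245906-121270917, plus strand). Without UVB it had 14.6, 19.8, 23.3 and 29.4 normalised reads in iNZM and 58.4, 82.1, 92.9, 105 and 220.1 in NZM. After acute UVB the iNZM samples had 3.3, 10.1, 12.5, 14.8 and 15.2, against 50.7, 81, 81.8, 117 and 169 in NZM. After chronic UVB Usp18 stood at 9.4, 10.4, 17.4, 24.4 and 26.1 in iNZM and 32.2, 53.5, 56.3, 72.6 and 173 in NZM. The strains did not overlap in any regimen, and NZM chronic UVB sample 54 was the highest by far of its group. Limma gave log2 differences of -2.20 ± 0.43 (SE), adjusted p = 0.0385, then -3.08 ± 0.40 (SE), adjusted p = 1.52e-05, and -1.96 ± 0.40 (SE), adjusted p = 0.0141.

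Irf7, the transcription factor that amplifies interferon production (ENSMUSG00000025498.15, chr7:141262706-141266481, minus strand), also separated the strains in every regimen. Without UVB Irf7 had 189.6, 218, 235 and 272 normalised reads in iNZM and 372, 474, 558, 2298 and 2461 in NZM. After acute UVB its values were 76.5, 106, 116, 278 and 308 in iNZM and 426, 535, 713, 915 and 3723 in NZM. In the chronic groups they were 126, 155, 188, 263 and 363 and 428, 609.6, 729, 1251 and 1579. No iNZM sample reached the lowest NZM sample, but NZM spread over a wide range, with 2 high samples without UVB and 1 after acute UVB. The limma log2 difference was -2.54 ± 0.58 (SE), adjusted p = 0.046, after acute UVB, and -1.97 ± 0.61 (SE), adjusted p = 0.567, without UVB and -2.01 ± 0.58 (SE), adjusted p = 0.107, after chronic UVB, which did not pass. Stat2, a subunit of ISGF3, overlapped between the strains in all 3 regimens. After acute UVB it had 291, 362, 418, 463 and 546 in iNZM and 368, 605, 831, 930 and 1375 in NZM, a limma log2 difference of -0.88 ± 0.31 (SE), adjusted p = 0.812. For Irf9, the DNA-binding subunit of ISGF3, the log2 differences were -0.58, -0.61 and -0.67, none of them called.

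Isg15 encodes a ubiquitin-like protein that is joined to other proteins after interferon (ENSMUSG00000035692.6, chr4:156199424-156200818, minus strand). It was not called in any regimen. Without UVB it had 75.1, 78.4, 104 and 118 normalised reads in iNZM and 143, 148, 393, 434 and 1605 in NZM. After acute UVB Isg15 had 52.7, 65.5, 70.8, 147 and 169.6 in iNZM and 249, 284, 309.7, 324 and 485 in NZM. After chronic UVB the values were 15.5, 47.5, 58.1, 141 and 168 and 56.8, 192, 226, 353 and 413. The strains were apart without UVB and after acute UVB and overlapped after chronic UVB, where 3 iNZM samples passed the lowest NZM sample. Limma gave log2 differences of -1.94 ± 0.61 (SE), adjusted p = 0.567, then -1.82 ± 0.58 (SE), adjusted p = 0.567, and -1.67 ± 0.58 (SE), adjusted p = 0.214. Of the other 5 genes of its role, Trim30d was called after acute UVB (log2 -4.50 ± 0.78 (SE), adjusted p = 0.00154 by limma) and Trim30a after chronic UVB (-2.78 ± 0.64 (SE), adjusted p = 0.0338). Both belong to a family of ubiquitin ligases. Herc6, the ligase for ISG15 in mice, Trim25, a ligase acting on RIG-I, and Dtx3l, the partner of Parp9, were called in none of the 3.

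Genes that sense nucleic acid had smaller median differences, of -0.59, -0.74 and -0.53 over 8 genes. Zbp1, a sensor of left-handed nucleic acid that can start necroptosis (ENSMUSG00000027514.14, chr2:173206612-173218923, minus strand), had the largest difference of the 8 after both UVB regimens. Without UVB Zbp1 had 30.5, 56.4, 67.8 and 77.5 normalised reads in iNZM and 63.6, 96.9, 119, 270.1 and 442 in NZM. Acute UVB samples had 5.1, 7.7, 24.6, 40.7 and 108 in iNZM and 71.8, 265, 300.2, 385 and 617 in NZM. After chronic UVB Zbp1 was nearly absent in iNZM, at 0, 2.3, 3.1, 7.8 and 7.8, against 25.1, 86.9, 94.8, 182 and 348 in NZM. Its strains overlapped without UVB, overlapped through 1 iNZM sample and NZM sample 5 after acute UVB, and were apart after chronic UVB. Limma log2 differences were -3.56 ± 0.72 (SE), adjusted p = 0.0124, after acute and -4.73 ± 0.72 (SE), adjusted p = 0.000194, after chronic UVB. The pseudocount of 1 matters at such counts, and a pseudocount of 8 gave -3.31 after chronic UVB. Ifih1, the RNA sensor MDA5, was not called, with 235, 244, 337, 478 and 483 in iNZM and 339.6, 580.4, 603, 717 and 786 in NZM after acute UVB, which overlapped (-0.78 ± 0.25 (SE), adjusted p = 0.567 by limma). Ddx60, a helicase linked to RIG-I, was called after chronic UVB at -3.86 ± 0.76 (SE), adjusted p = 0.00812. Ddx58 (RIG-I), Dhx58 (LGP2), Eif2ak2 (the kinase PKR), Adar (an RNA-editing enzyme) and Znfx1 were not called.

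The antiviral effectors held the most calls, 1, 7 and 7 of 11 in the 3 regimens, with medians of -1.13, -2.52 and -2.13. Ifit1, which binds viral RNA with an unmethylated cap (ENSMUSG00000034459.8, chr19:34640871-34650009, plus strand), was among the 3 members called in each regimen. Without UVB Ifit1 had 16.5, 20.9, 28.3 and 39.6 normalised reads in iNZM and 104, 149, 279.8, 303 and 809.5 in NZM. After acute UVB there were 8.8, 13.1, 14.3, 17.7 and 18.3 in iNZM and 64, 159, 178, 232 and 293 in NZM. The chronic groups had 0, 4.6, 13.3, 15.7 and 22.3 and 53.7, 97.2, 108, 137 and 309. The strains never overlapped, and NZM sample 35 was far above the others without UVB. The limma log2 differences were -3.30 ± 0.65 (SE), adjusted p = 0.0385, -3.47 ± 0.61 (SE), adjusted p = 0.00171, and -3.92 ± 0.61 (SE), adjusted p = 0.000251. Ifit3, its binding partner, had lower means in iNZM but was not called, and after acute UVB its values were 13.5, 39.4, 134, 196 and 208 in iNZM and 192, 394, 406, 511 and 1261 in NZM, which overlapped (-2.52 ± 0.60 (SE), adjusted p = 0.0661 by limma). Ifit2 was called after chronic UVB (-2.18 ± 0.46 (SE), adjusted p = 0.0172).

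Rsad2, the radical enzyme viperin (ENSMUSG00000020641.16, chr12:26442746-26456452, minus strand), and its neighbour Cmpk2, a mitochondrial nucleotide kinase, differed most after acute UVB. Without UVB Rsad2 had 28.3, 42.8, 43.7 and 51.5 normalised reads in iNZM and 76.3, 100.4, 119.8, 229.9 and 348 in NZM. After acute UVB it had 3.0, 6.1, 6.7, 18.7 and 25.2 in iNZM and 52.3, 101, 207, 271 and 297 in NZM. After chronic UVB the values were 23.2, 25.2, 33.1, 33.3 and 78.8 and 76.3, 109, 142, 219 and 433. The strains were apart except after chronic UVB, where 1 iNZM sample at 78.8 passed the lowest NZM sample. Limma gave log2 differences of -3.93 ± 0.52 (SE), adjusted p = 1.52e-05, after acute and -2.19 ± 0.52 (SE), adjusted p = 0.0415, after chronic UVB. Bst2 (ENSMUSG00000046718.8, chr8:71534255-71537456, minus strand) was higher in level and closer between strains, with 159, 177, 265, 353 and 558 in iNZM and 469, 788, 841, 1052 and 2024 in NZM after acute UVB and 151, 155, 157, 167 and 248 and 396, 584, 600.4, 1143 and 1575 after chronic UVB. The acute groups overlapped and the chronic groups did not, and the limma log2 differences were -1.76 ± 0.40 (SE), adjusted p = 0.0465, and -2.13 ± 0.40 (SE), adjusted p = 0.00553. Of the dynamin-like GTPases, Mx1 was called after acute UVB (-3.86, limma) and Mx2 after both regimens (-3.50 and -3.82). Samd9l, a restriction factor, was called after both (-1.65 and -1.69), and Isg20, an exonuclease, in none.

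Ifi44 (ENSMUSG00000028037.13, chr3:151730922-151749960, minus strand) had the largest difference in each regimen and was singled out after its values were seen. Without UVB it had 0, 1.9, 3.3 and 4.9 normalised reads in iNZM and 19.7, 24.5, 48.2, 166 and 454 in NZM. Only 1 of 5 iNZM samples had any read after acute UVB, at 3.3, while NZM had 24.2, 33.7, 34.6, 72.9 and 264. After chronic UVB 1 of 5 iNZM samples had a read, at 1.2, and NZM had 25.6, 31.3, 31.6, 96.6 and 124. The strains were apart in all 3 regimens. Limma log2 differences were -4.62 ± 0.75 (SE), adjusted p = 0.0024, -5.42 ± 0.71 (SE), adjusted p = 1.52e-05, and -5.45 ± 0.71 (SE), adjusted p = 3.07e-05. They are not bounds, since a pseudocount of 8 gave -3.01 (adjusted p = 0.0545), -2.95 and -2.85.

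**Figure D3:**
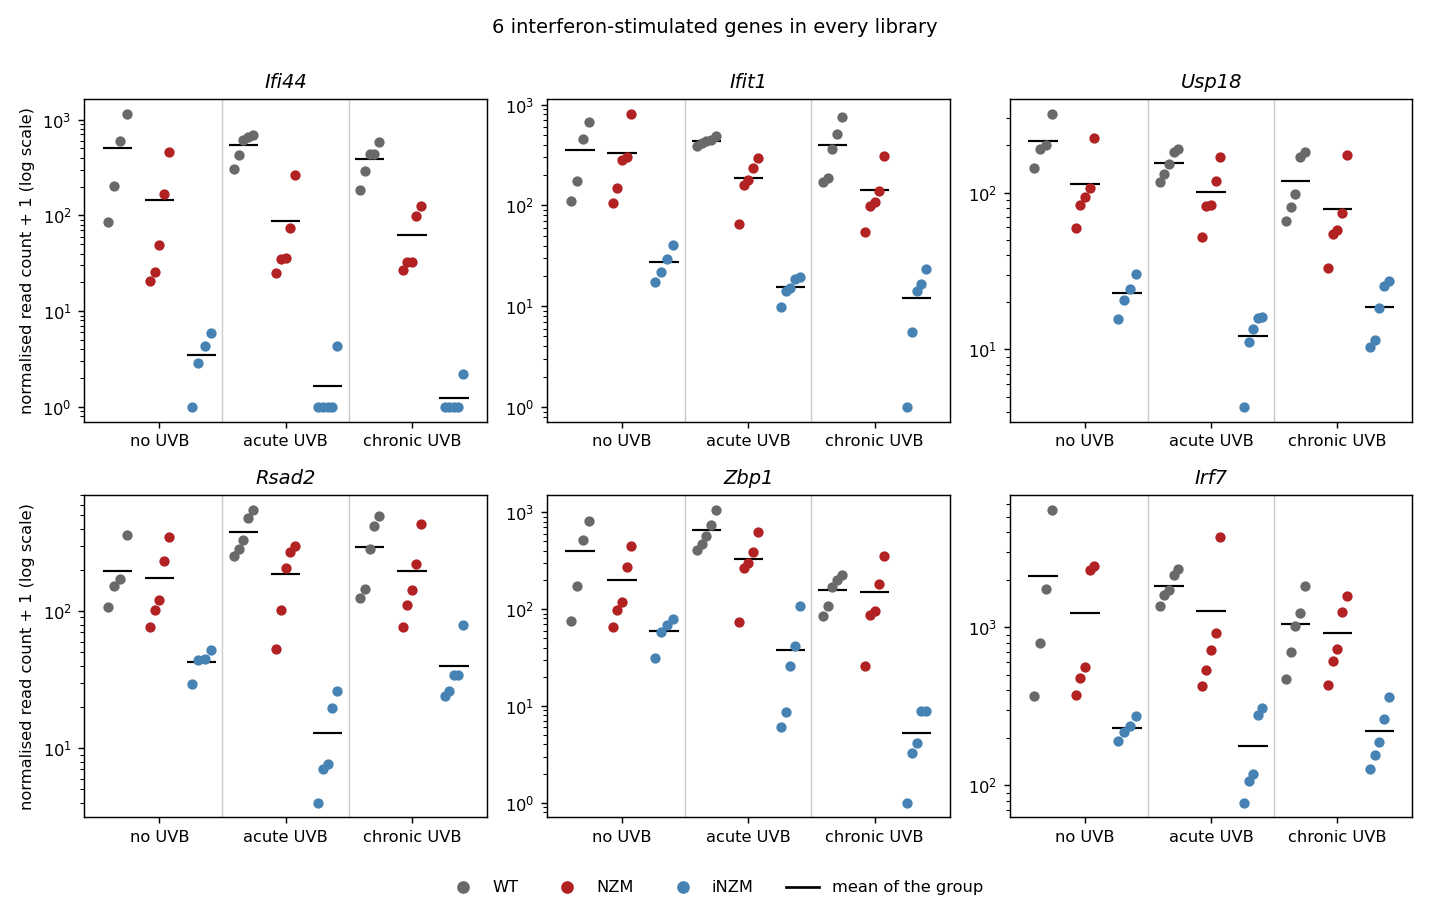
Points are single libraries of 6 genes on a log axis of the normalised read count + 1, by regimen and strain, and lines are group means. Ifi44, Ifit1, Usp18 and Irf7 in iNZM lie below every NZM library of their regimen, whereas Rsad2 after chronic UVB and Zbp1 without UVB and after acute UVB overlap.

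Ifi27l2a (ENSMUSG00000079017.3, chr12:103442167-103443680, minus strand) and Xaf1, a pro-apoptotic protein gene, were called after both UVB regimens. Without UVB Ifi27l2a had 116, 229, 456 and 467 normalised reads in iNZM and 392, 452, 558, 1333 and 2061 in NZM, which overlapped. After acute UVB it had 44.5, 54.9, 68.9, 181 and 207 in iNZM and 426, 973, 1190.4, 1622 and 3721 in NZM, with no overlap. After chronic UVB the values were 41.8, 66.8, 92.6, 157 and 333 and 406, 587, 712, 1704 and 2506, again apart. Limma gave -3.75 ± 0.58 (SE), adjusted p = 0.000223, and -3.13 ± 0.58 (SE), adjusted p = 0.00382. Its neighbour Ifi27 was not called, with log2 differences from -0.75 to -0.24. Among the Schlafen genes, a family that restrains growth and viral protein synthesis, Slfn8 was called after both regimens (-2.59 and -3.91, limma) and Slfn1 after chronic UVB (-4.29). Parp9 and Parp14, which attach ADP-ribose to proteins, were not called. Of the other genes, Rtp4, a chaperone of membrane receptors, differed by -3.78 ± 0.56 (SE), adjusted p = 0.000149, and -4.16 ± 0.56 (SE), adjusted p = 3.65e-05, in the acute and chronic regimens by limma. Sp100, a protein of nuclear bodies, was called after both and Lgals3bp, a secreted glycoprotein, after chronic UVB. Ly6a overlapped in all 3 regimens, for example 213, 331, 648, 709 and 1322 in iNZM and 879, 1336, 1348, 1530.4 and 2809.5 in NZM after chronic UVB (-1.46 ± 0.43 (SE), adjusted p = 0.122, limma).

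Some immune cell markers were called between iNZM and NZM, where 0.0313%, 0.224% and 0.428% of all genes were called in the 3 regimens. The 8 leukocyte genes had a median log2 difference between iNZM and NZM of 0.60 without UVB, -0.75 after acute and -1.28 after chronic UVB, and limma called 0 of them in each. For 12 monocyte and macrophage genes the medians were 1.26, -1.49 and -2.81, with 0, 1 and 3 called lower. Summed levels of the monocyte and macrophage genes without UVB ran from 8578 to 23499.8 in iNZM and 3925 to 6084 in NZM, without overlap. After acute UVB the sums overlapped widely, at 1041 to 42793 in iNZM and 4354 to 33035 in NZM. After chronic UVB they ran from 619 to 4948 in iNZM and 3566 to 23963 in NZM. For 8 neutrophil genes tested the medians were 0.41, -0.08 and -1.23, with 0, 0 and 1 called lower, and for 10 dendritic and Langerhans cell genes 0.68, -0.69 and -1.0, with 0 called. Summed neutrophil genes after acute UVB were 1259 to 41419.5 in iNZM and 5450.1 to 25145 in NZM. Fibroblast and adipocyte genes, 8 of each, had medians of 1.69 and 1.17 without UVB and -1.95 and -1.60 after chronic UVB, with 0 called. Of 28 hair follicle and 8 keratinocyte genes limma called 0 in each regimen. Of the immune markers, the neutrophil gene Ly6g was at 0 in every library without UVB and after chronic UVB in all 3 strains, and the neutrophil gene Ngp in every iNZM library after chronic UVB. No other immune marker was at 0 throughout a group. The part of these lists in the members' differences was not tested.

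Limma called few members between exposed and unexposed skin of NZM and WT, in both directions, and up to 22 lower in iNZM. Few calls do not show a lack of change, since the members varied widely between libraries of these groups, as given later. Counts of calls also do not compare the strains. The interaction tests of NZM against iNZM, described below, called 0 members in the main fit. In NZM, acute UVB raised 2 members and lowered 2 of 47, while 21.4% of all genes were called. Chronic UVB raised 0 and lowered 4, with 19% of all genes called. In WT the counts were 3 raised and 1 lowered after acute UVB (21.7% of all genes) and 4 and 3 after chronic UVB (35.3%). The members' shares were below these backgrounds in both strains. In iNZM acute UVB raised 0 and lowered 11 (25.2% of all genes called and 12.4% called lower). Chronic UVB raised 1 and lowered 22, where 15.7% of all genes were called lower. Median log2 differences after acute UVB were 0.36 in WT, 0.08 in NZM and -0.79 in iNZM. After chronic UVB they were -0.22, -0.11 and -1.10, and the medians of all genes were within 0.04 of 0. The 2 UVB comparisons of a strain share their unexposed samples.

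**Figure D4:**
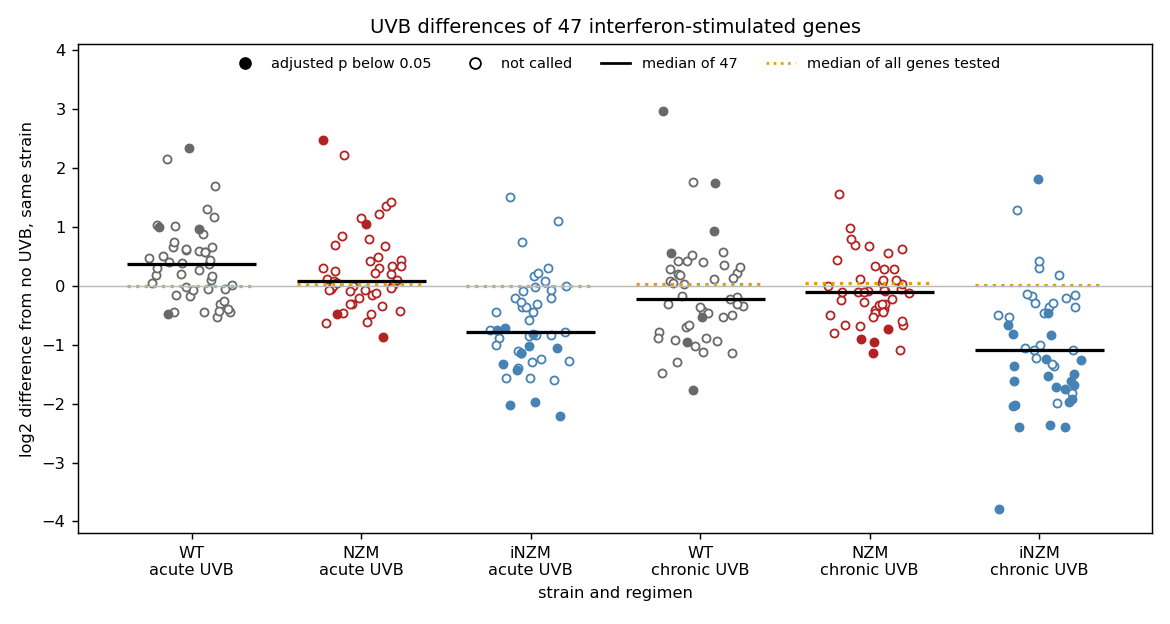
Points are the log2 differences of 47 genes between UVB-exposed and unexposed skin of the same strain (vertical axis), filled where limma gave an adjusted p below 0.05. Solid lines are the medians of the 47 and dotted lines those of all genes tested; the iNZM medians lie lowest, at -0.79 and -1.10.

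In NZM the members raised by acute UVB were Trim30d and Helz2, a helicase that works with nuclear receptors. Trim30d went from 1.2, 2.0, 6.9, 12.6 and 18.3 to 6.2, 42.4, 43.3, 69.1 and 71.1 normalised reads, a limma log2 difference of 2.47 ± 0.78 (SE), adjusted p = 0.0192. Helz2 had 124, 148, 152, 233 and 234 without UVB and 187, 331, 413, 475 and 483 after it (1.05 ± 0.31 (SE), adjusted p = 0.0118). In both genes the lowest exposed sample, NZM sample 5 with a high hair follicle score, lay among the unexposed ones. Ifih1 fell, from 822, 892, 941, 1213 and 1594 to 339.6, 580.4, 603, 717 and 786 (-0.86 ± 0.25 (SE), adjusted p = 0.0104), with no overlap. Tor3a, an ATPase of the endoplasmic reticulum, fell by 0.488 on the log2 scale (adjusted p = 0.0108). After chronic UVB Ifih1 fell by 1.15, Dtx3l by 0.96, Parp9 by 0.90 and Irf9 by 0.73 on that scale. Without the 9 libraries of high hair follicle score limma called 9 members after acute and 0 after chronic UVB, and with that score as a term 9 and 2. Over all 19170 genes 5437 and 1006 were called without those libraries, and 5172 and 2835 with the score as a term. A pseudocount of 8 gave 7 members after acute UVB. Chronic against acute UVB in NZM gave 0 calls by limma and by edgeR, with 7.55% of all genes called by limma. At an unadjusted limma p under 0.05 there were 3 of 47 members, against 22.8% of all genes. Without NZM acute UVB sample 5 that comparison gave 2 calls. Limma called 2058 of 19170 genes lower and 2039 higher after acute UVB in NZM, and 1875 lower and 1763 higher after chronic UVB. Of the cell type markers, limma called 4 of 8 keratinocyte, 1 of 8 neutrophil, 1 of 8 plasmacytoid dendritic cell, 3 of 10 dendritic and Langerhans cell and 6 of 10 T and NK cell genes lower, and 4 of 12 monocyte and macrophage, 6 of 8 neutrophil and 1 of 8 fibroblast genes higher after acute UVB in NZM. After chronic UVB it called 2 of 8 keratinocyte, 2 of 8 neutrophil, 1 of 8 plasmacytoid dendritic cell, 4 of 10 dendritic and Langerhans cell, 6 of 10 T and NK cell and 6 of 8 skeletal muscle genes lower, and 1 of 8 keratinocyte, 18 of 28 hair follicle, 3 of 8 neutrophil, 1 of 8 plasmacytoid dendritic cell, 3 of 8 fibroblast and 5 of 8 melanocyte genes higher, and the part of these lists was not tested.

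In WT, Mx1 rose after both regimens. It had 3.5, 7.9, 76.9 and 91.4 normalised reads without UVB, 54.3, 90.4, 136, 150 and 202 after acute and 79.5, 80.3, 159, 377 and 493 after chronic UVB. The unexposed samples fell into 2 low and 2 higher ones. Both higher ones overlapped the acute group, and only the sample at 91.4 overlapped the chronic group. Limma gave log2 differences of 2.33 ± 0.80 (SE), adjusted p = 0.0331, and 2.97 ± 0.80 (SE), adjusted p = 0.00422. Ifi35 rose by 0.96 and 0.92, Helz2 by 1.00 after acute UVB, and Phf11d by 1.74 and Trim25 by 0.55 after chronic UVB. Ifi27l2a fell after chronic UVB, from 1772, 2118, 3661 and 6448 to 525, 851, 1032, 1042 and 1245 (-1.76 ± 0.61 (SE), adjusted p = 0.0229), with no overlap. Znfx1, a helicase of antiviral defence, fell from 1166, 1191, 1341 and 1839 to 618, 699, 704, 745 and 765 (-0.95 ± 0.17 (SE), adjusted p = 5.83e-05), also apart. Tor3a fell after both. The acute count of 4 became 2 without WT acute UVB sample 50 or 52 and 2 without unexposed WT sample 41 or 43, 1 with the compared groups only, 7 with the hair follicle score as a term and 2 with a term for samples numbered 46 or above. The chronic count of 7 became 12 without the 9 libraries, 14 with the score as a term and 11 by edgeR. Over all 19170 genes these 3 settings called 8387, 8312 and 6812 after chronic UVB. After acute UVB 5222 genes were called with the score as a term and 4077 with the compared groups only. The main fit called 2173 genes lower and 1996 higher after acute UVB, and 3229 lower and 3532 higher after chronic UVB. Of the cell type markers in WT, limma called 5 of 8 keratinocyte, 1 of 28 hair follicle, 1 of 8 neutrophil, 3 of 10 dendritic and Langerhans cell, 5 of 10 T and NK cell and 1 of 8 adipocyte genes lower, and 1 of 12 monocyte and macrophage, 5 of 8 neutrophil, 1 of 10 dendritic and Langerhans cell and 1 of 10 T and NK cell genes higher after acute UVB. After chronic UVB it called 2 of 12 monocyte and macrophage, 2 of 8 neutrophil, 1 of 8 plasmacytoid dendritic cell, 6 of 10 dendritic and Langerhans cell, 4 of 10 T and NK cell, 6 of 8 fibroblast, 5 of 8 adipocyte, 7 of 8 skeletal muscle and 1 of 8 endothelial genes lower, and 4 of 8 keratinocyte, 4 of 8 neutrophil and 1 of 8 plasmacytoid dendritic cell genes higher. Summed monocyte and macrophage genes in WT were 8419 to 62912 without UVB, 6798 to 53317 after acute and 3339 to 17332 after chronic UVB, and summed skeletal muscle genes 785762 to 1971570, 714361 to 1268720 and 229543 to 281749. Their part in the members' changes was not tested.

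Chronic against acute UVB in WT gave 2 members higher and 8 lower by limma, where 37.3% of all genes were called. Ly6a was lower after chronic UVB, at 1067, 1179, 1187, 1786 and 1849 against 2326, 3133, 3170.2, 4287 and 5847 after acute UVB (-1.37 ± 0.43 (SE), adjusted p = 0.0118). Zbp1 was also lower, at 83.5, 106, 169.9, 199 and 224 against 407, 470.4, 568, 733 and 1061 (-2.05 ± 0.72 (SE), adjusted p = 0.0227). Neither gene overlapped between the regimens. Znfx1 and Slfn5 had the smallest adjusted p, at log2 differences of -0.70 and -1.55, and Trim25 and Phf11d were the 2 higher members. The count of 10 became 17 with the compared groups only, and 6 without WT acute UVB sample 52 and 6 without WT chronic UVB sample 59. With the compared groups only 7224 of 19170 genes were called. The main fit called 3391 genes lower and 3762 higher. Limma also called 1 of 8 leukocyte, 3 of 12 monocyte and macrophage, 3 of 8 neutrophil, 1 of 8 plasmacytoid dendritic cell, 1 of 10 dendritic and Langerhans cell, 4 of 8 fibroblast, 1 of 8 adipocyte, 6 of 8 skeletal muscle and 3 of 8 endothelial genes lower, and 7 of 8 keratinocyte, 1 of 8 plasmacytoid dendritic cell and 1 of 10 T and NK cell genes higher in this comparison. Summed keratinocyte genes were 171787 to 388508 after acute and 969931 to 2270270 after chronic UVB, and their part was not tested.

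In iNZM the members fell rather than rose, above all after chronic UVB. Zbp1 had 30.5, 56.4, 67.8 and 77.5 normalised reads without UVB and 0, 2.3, 3.1, 7.8 and 7.8 after chronic UVB, with no overlap (-3.79 ± 0.76 (SE), adjusted p = 0.000639, limma). Parp9 went from 626, 715, 795 and 820 to 205, 206, 257, 299 and 331, also apart (-1.53 ± 0.26 (SE), adjusted p = 0.000119). Dtx3l, Ifih1 and Cmpk2 followed with log2 differences of -1.36, -1.25 and -1.93. Phf11d rose, from 3.1, 4.4, 5.8 and 18.5 to 9.6, 25.6, 29.1, 32.7 and 40.0 (1.82 ± 0.48 (SE), adjusted p = 0.00637), although the groups overlapped. Every sample after chronic UVB was below every unexposed one for 20 members, against 10.9% of all genes. After acute UVB the smallest adjusted p were those of Tor3a, Ifih1, Cmpk2, Parp9 and Rsad2, with log2 differences of -0.75, -1.15, -1.97, -1.05 and -2.03. Chronic against acute UVB in iNZM gave 2 higher and 4 lower (8.26% of all genes called). Rsad2 and Mx1 were higher after chronic UVB, Rsad2 going from 3.0, 6.1, 6.7, 18.7 and 25.2 to 23.2, 25.2, 33.1, 33.3 and 78.8 (1.81 ± 0.52 (SE), adjusted p = 0.0244). Slfn8 was lower, with 7.7, 12.1, 30.3, 35.4 and 57.1 after acute and 0, 5.2, 5.8, 6.1 and 12.2 after chronic UVB (-2.18 ± 0.60 (SE), adjusted p = 0.0183). The regimens overlapped in both genes. That count of 6 became 1 with a pseudocount of 8, 0 with the compared groups only, and 3 without iNZM acute UVB sample 48, 1 without iNZM acute UVB sample 9, 2 without iNZM acute UVB sample 10, 2 without iNZM chronic UVB sample 57 and 3 without iNZM chronic UVB sample 22.

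Other lists moved with the members in iNZM after chronic UVB. Limma called 2382 of 19170 genes lower and 2451 higher in iNZM after acute UVB. For chronic against acute UVB the counts were 853 lower and 731 higher. After chronic UVB 3013 of the 19170 genes were called lower and 2520 higher. Limma called 2 of 8 keratinocyte, 8 of 8 leukocyte, 11 of 12 monocyte and macrophage, 3 of 8 neutrophil, 3 of 8 plasmacytoid dendritic cell, 8 of 10 dendritic and Langerhans cell, 9 of 10 T and NK cell, 7 of 8 fibroblast, 5 of 8 adipocyte, 7 of 8 skeletal muscle and 4 of 8 endothelial genes lower, and 20 of 28 hair follicle and 7 of 8 melanocyte genes higher. Acute UVB in iNZM gave 6 of 8 keratinocyte, 2 of 8 leukocyte, 1 of 12 monocyte and macrophage, 1 of 8 neutrophil, 2 of 8 plasmacytoid dendritic cell, 5 of 10 dendritic and Langerhans cell, 7 of 10 T and NK cell, 1 of 8 fibroblast, 4 of 8 adipocyte and 2 of 8 endothelial genes lower, and 1 of 28 hair follicle, 5 of 8 neutrophil and 3 of 8 melanocyte genes higher, and between the regimens (chronic against acute) 2 of 8 leukocyte, 2 of 12 monocyte and macrophage, 4 of 8 neutrophil, 1 of 10 dendritic and Langerhans cell and 1 of 8 fibroblast genes lower, and 4 of 8 keratinocyte and 1 of 8 plasmacytoid dendritic cell genes higher. Summed leukocyte genes ran from 5599 to 7560.4 without UVB, 603 to 12261 after acute and 506 to 1768 after chronic UVB. Of the 28 hair follicle genes Krt33b, Krt34, Krtap3-1 and Krtap8-1 were at 0 in every unexposed iNZM library, and no leukocyte, monocyte and macrophage, or T and NK cell gene was at 0 throughout a group. The main fit called 23 of 47 members after chronic UVB, and 5533 of the 19170 genes. Without the 9 libraries of high hair follicle score, 3 of which are in this group, 13 members and 3962 genes were called. With that score as a term 6 members and 2372 genes were called, so that the members' share was then close to that of all genes. The part of these lists in the members' fall was not tested.

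Whether the UVB responses differed between strains was tested with interaction terms. For NZM against iNZM, limma called 0 members after acute UVB and 0 after chronic UVB, as did edgeR. At an unadjusted limma p under 0.05 there were 9 and 10 of 47 members, against 6.34% and 11.1% of all genes. All 9 and 10 had the higher response in NZM, and the response was higher in NZM for 44 and 42 of 47. Over all genes 0.00522% and 0% were called after adjustment. With the hair follicle score as a term 3 members were called after chronic UVB, among 479 of 19170 genes. Without iNZM chronic UVB sample 23 there was 1 member called. With neither change no member was shown to respond differently in iNZM. For NZM against WT, 0 members were called after acute UVB by limma and by edgeR, with 0.115% of all genes called by limma. At an unadjusted limma p under 0.05 there were 2 of 47 members, against 10.2% of all genes. After chronic UVB 3 were called, with 7.58% of all genes. Parp9 and Eif2ak2 responded less in NZM, by -1.32 ± 0.36 (SE) and -0.87 ± 0.28 (SE) on the log2 scale, and Znfx1 more, by 0.85 ± 0.24 (SE). Parp9 in WT had 600.1, 624, 735 and 1049.6 without and 771, 815, 1003, 1102 and 1316 after chronic UVB, and in NZM 662, 679.8, 689, 999.9 and 1467 and 373, 376, 423, 491 and 683, so that the means moved in opposite directions. The limma adjusted p were 0.022, 0.0498 and 0.0237. The count of 3 became 8 with the hair follicle score as a term, among 4178 of 19170 genes. It became 1 without NZM chronic UVB sample 55 and 1 without unexposed NZM sample 35. EdgeR called 2 members, of 1674 genes in all.

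No member was called higher in NZM than in WT skin in any regimen. Limma called 5, 4 and 8 members lower in NZM in unexposed, acutely and chronically exposed skin, where 15%, 13% and 7.88% of all genes were called and 7.49%, 5.08% and 3.59% called lower. The median log2 differences were -0.48, -0.61 and -0.55. For the higher side, 7.47%, 7.96% and 4.29% of all genes were called higher in NZM. At an unadjusted p under 0.05 there were 0, 0 and 0 members higher in NZM.

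Ifi44 and Isg20 were lower in NZM in all 3 regimens. Ifi44 in WT had 84.7, 201, 591 and 1148 normalised reads in unexposed skin, 301, 428, 617, 657 and 699 after acute and 183, 289.7, 439.5, 439.9 and 588 after chronic exposure. The unexposed strains overlapped and both exposed pairs were apart, with limma log2 differences of -2.19 ± 0.75 (SE), adjusted p = 0.0427, -3.18 ± 0.71 (SE), adjusted p = 0.00161, and -2.83 ± 0.71 (SE), adjusted p = 0.00777. Isg20 had 169, 194, 284 and 284 in WT and 50.9, 60.7, 64.2, 87.3 and 119.8 in NZM without UVB. After acute UVB it had 109.7, 193, 213, 266 and 289.6 and 35.9, 105, 120.3, 126 and 154. After chronic UVB Isg20 had 150.1, 165, 169, 183 and 260.1 in WT and 58.6, 60.9, 64.6, 69.7 and 105 in NZM. Only the acute groups overlapped, and limma gave -1.62 ± 0.36 (SE), adjusted p = 0.00134, -1.05 ± 0.34 (SE), adjusted p = 0.0319, and -1.36 ± 0.34 (SE), adjusted p = 0.00673. Ifi27l2a differed without UVB, with 1772, 2118, 3661 and 6448 in WT against 392, 452, 558, 1333 and 2061 in NZM (-1.99 ± 0.61 (SE), adjusted p = 0.0223), overlapping through 1 library of each strain. Znfx1 was also lower without UVB (-0.81), and Tor3a without UVB and after acute UVB (-0.43 and -0.44). After chronic UVB Eif2ak2, with 724, 805, 845, 1159 and 1191 in WT and 409, 451, 469, 473 and 737 in NZM, had the smallest adjusted p (-0.90 ± 0.19 (SE), adjusted p = 0.00175), although 1 library of each strain overlapped. Parp9, Trim25, Irf9, Dtx3l and Ifi35 were also lower after chronic UVB, by log2 differences from -1.10 to -0.72. The counts became 9 without UVB and 1 after chronic UVB without the 9 libraries of high hair follicle score, and 8, 7 and 5 with that score as a term. Over all 19170 genes those fits called 4342 and 1108, and 4235, 3725 and 2594. Leaving out 1 library gave 3 members without unexposed NZM sample 31 or 32, 2 without unexposed NZM sample 33 and 2 without unexposed WT sample 44 or 45 for the unexposed groups. It gave 1 without NZM acute UVB sample 5 and 1 without WT acute UVB sample 51 or 52 for the acute groups and 5 without NZM chronic UVB sample 56 and 5 without WT chronic UVB sample 58 or 29 for the chronic ones.

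Markers of other cell types also differed between NZM and WT. In the 3 regimens 7.49%, 5.08% and 3.59% of all genes were called lower in NZM, and 7.47%, 7.96% and 4.29% higher. Without UVB limma called 2 of 12 monocyte and macrophage, 2 of 10 dendritic and Langerhans cell, 8 of 8 fibroblast, 7 of 8 adipocyte, 1 of 8 skeletal muscle and 2 of 8 endothelial genes lower, and 3 of 8 keratinocyte, 3 of 8 neutrophil, 1 of 10 dendritic and Langerhans cell and 2 of 10 T and NK cell genes higher in NZM. Summed adipocyte genes were then 11024 to 29568 in NZM and 83540.3 to 135721 in WT, summed fibroblast genes 15058 to 52306 and 63099.6 to 285908, and summed endothelial genes 2531 to 4598 and 6262 to 8724. The strains did not overlap in these 3 sums. After acute UVB limma called 1 of 8 adipocyte genes lower, and 2 of 8 keratinocyte, 1 of 8 neutrophil and 2 of 10 T and NK cell genes higher, and after chronic UVB 2 of 8 plasmacytoid dendritic cell genes lower, and 14 of 28 hair follicle, 2 of 8 plasmacytoid dendritic cell and 2 of 10 T and NK cell genes higher. The part of these lists in the members' differences was not tested.

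The broadest difference was between iNZM and WT. Limma called 18 of 47 members lower in iNZM without UVB, 44 after acute and 42 after chronic UVB, and 0 higher. Over all genes 9.78%, 24.7% and 14.5% were called, and 3.94%, 12.5% and 8.43% called lower. The members' median log2 differences were -1.26, -2.43 and -2.05. 17 members were called in all 3 regimens, among them Irf7, Stat2, Usp18, Ifit1, Ifit2, Rsad2, Cmpk2, Eif2ak2, Isg20 and Tor3a. Every iNZM library was below every WT library for 39 members after acute UVB, against 4.99% of all genes. The 3 members not called after acute UVB were Adar, Phf11d and Trim25, named here after their values were seen. Ifit1, at 392, 419, 434, 450.3 and 484 in WT after acute UVB, differed from iNZM by -4.86 ± 0.61 (SE), adjusted p = 1.57e-07. Usp18, at 116, 130.4, 152, 180 and 189 in WT, differed by -3.78 ± 0.40 (SE), adjusted p = 3.46e-09. Isg15 had 394, 662, 679, 680.1 and 931 in WT (-2.82 ± 0.58 (SE), adjusted p = 0.000458). Without UVB the count of 18 became 28 with the hair follicle score as a term and 11 without unexposed WT sample 45. With that term 2910 of 19170 genes were called. EdgeR called 24, 44 and 41 members, of 1852, 4727 and 2823 genes in all. Limma called 1119, 2339 and 1173 of all genes higher in iNZM in the 3 regimens. Of the cell type markers, limma called 1 of 12 monocyte and macrophage and 1 of 8 adipocyte genes lower, and 1 of 8 keratinocyte, 3 of 8 neutrophil, 1 of 10 dendritic and Langerhans cell and 3 of 10 T and NK cell genes higher in iNZM without UVB. Acute UVB gave 1 of 8 leukocyte, 2 of 12 monocyte and macrophage, 1 of 8 plasmacytoid dendritic cell, 1 of 10 dendritic and Langerhans cell, 2 of 8 fibroblast, 7 of 8 adipocyte, 2 of 8 skeletal muscle and 7 of 8 endothelial genes lower, and 1 of 8 keratinocyte, 1 of 8 neutrophil and 1 of 10 T and NK cell genes higher, and after chronic UVB 4 of 8 keratinocyte, 3 of 8 leukocyte, 3 of 12 monocyte and macrophage, 1 of 8 neutrophil, 3 of 8 plasmacytoid dendritic cell, 4 of 10 dendritic and Langerhans cell, 1 of 8 fibroblast, 4 of 8 adipocyte and 5 of 8 endothelial genes lower, and 18 of 28 hair follicle, 1 of 8 plasmacytoid dendritic cell and 1 of 8 melanocyte genes higher. Summed endothelial genes after acute UVB were 1044 to 9976 in iNZM and 6126 to 11495 in WT, summed adipocyte genes 8473 to 51188 and 35216 to 108360, and summed monocyte and macrophage genes 1041 to 42793 and 6798 to 53317. The part of these lists in the members' differences was not tested.

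Libraries of a group differed in the overall level of the members. A score, the mean of the 47 log2 levels centred per gene over the 43 libraries, ran from -0.35 to 1.21 in NZM without UVB, -0.01 to 1.87 in WT and -0.84 to -0.57 in iNZM. After acute UVB it ran from -0.62 to 1.41 in NZM, 0.87 to 1.74 in WT and -2.14 to -0.75 in iNZM. After chronic UVB the ranges were -0.59 to 1.16, 0.10 to 1.24 and -2.20 to -1.33. iNZM lay below both other strains without overlap in each regimen, and NZM overlapped WT. In some groups a single library held most of the top values, namely WT sample 45 in 44 of 47 members and NZM sample 35 in 36 without UVB, NZM sample 47 in 41 after acute UVB and NZM sample 54 in 43 after chronic UVB. These libraries held the top value for 27.8%, 18%, 21% and 20.7% of all genes. At the other end NZM acute UVB sample 5 was the lowest in 45 of 47, and its hair follicle score was 7.47. In WT after acute UVB sample 52 was the highest for 33, and in iNZM after acute UVB sample 10 for 24. In other groups the top values were shared. WT after chronic UVB had its top values in sample 58 for 26 members and sample 29 for 17, and iNZM chronic UVB sample 57 was the highest for 19 and the lowest for 10. In iNZM without UVB the top values were spread over the 4 libraries, at 5, 9, 13 and 20 members.

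Among genes with a group mean of 100 or more, members had a larger median coefficient of variation (SD over mean) than all tested genes in each of the 9 groups. Without UVB it was 53.8% in WT (42 members), 43.4% in NZM (38) and 13.3% in iNZM (25), against 17%, 13.5% and 11.3% over all such genes. After acute UVB it was 34% in WT (45 members), 46.2% in NZM (41) and 38.2% in iNZM (26), against 17.6%, 17% and 24.7% over all such genes. After chronic UVB it was 30.2% in WT (42 members), 46.1% in NZM (36) and 28.6% in iNZM (22), against 17%, 20.8% and 25.6% over all such genes. These figures are descriptions and were not tested.

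**Figure D5:**
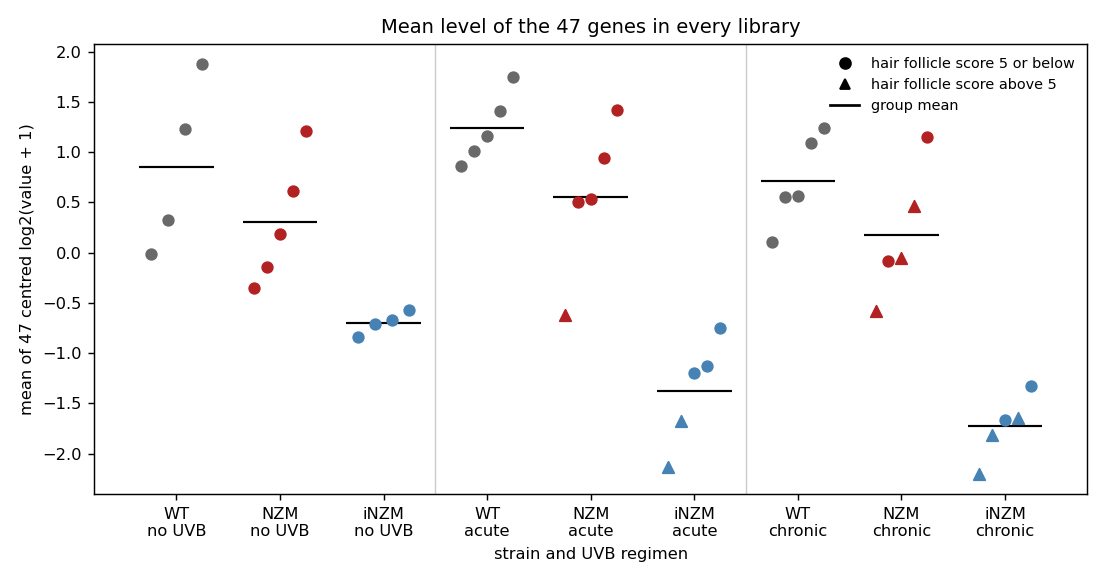
Each point is 1 library, with the mean of the 47 centred log2 levels on the vertical axis and strain and regimen on the horizontal axis; lines are group means and triangles mark the 9 libraries with a hair follicle score above 5. In every regimen all iNZM points lie below all WT and NZM points, and the lowest NZM points after acute and chronic UVB are triangles.

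Of the upstream pathway genes in the table, Ifnar1 was the 1 called between iNZM and NZM. Of 36 pathway genes 24 were in the table, and the genes of the interferons themselves are not analysed here. Between iNZM and NZM limma called 1 of the 24 in each regimen (4.17%, against 0.0313%, 0.224% and 0.428% of all genes), with log2 differences of -1.10 ± 0.14 (SE), -1.04 ± 0.13 (SE) and -1.13 ± 0.13 (SE). Ifnar2, the other receptor chain, had 0.36 ± 0.30 (SE), -0.43 ± 0.29 (SE) and -1.04 ± 0.29 (SE) and was not called (adjusted p = 0.0859 by limma after chronic UVB). Irf1, a transcription factor, and Socs1, an inhibitor of the pathway, were not called. Acute UVB changed 7 of the 24 in NZM (29.2%, against 21.4% of all genes). Socs3, an inhibitor of cytokine signalling, rose by 1.92 (limma adjusted p = 0.000452), Tmem173, the DNA-sensing adaptor STING, by 2.23 (0.000151) and Myd88, an adaptor of Toll-like receptors, by 1.16 (0.000269).

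Related gene families give a comparison for the strain difference. Over all genes 0.0313%, 0.224% and 0.428% were called between iNZM and NZM in the 3 regimens. Of 10 OAS genes, which make the activator of an antiviral RNase and are also induced by type I interferon, 1, 6 and 6 were called lower in iNZM than in NZM in the 3 regimens by limma, with medians of -2.52, -3.88 and -3.18. Of 17 GTPase genes induced mainly by interferon gamma 0, 2 and 3 were called lower, with medians of -0.58, -1.80 and -1.63. The members stood between the families without UVB, at -0.80, and after acute and chronic UVB their medians of -1.82 and -1.69 were near those of the GTPases. No test of the difference between families was made.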

How the data were processed

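Poly-A RNA of 43 back-skin samples was sequenced in read pairs. The authors deposited 1 signal per gene and sample, and the submitters' processing notes name STAR, HTSeq and DESeq2 and the build mm10; versions, annotation and filters are not given in the sources used here. The deposited signal is a read count divided by a size factor, 0.674 to 1.75, and multiplying back gave whole reads for 100% of values (tolerance 0.01). The depth, 18.5 to 37.8 M reads, limits the precision of members under about 10 reads.

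Samples were grouped by strain and regimen from their titles. Genes reaching 10 in 4 or more samples were tested (19170, all 47 members among them). Limma-trend 3.58.1 (R 4.3.3) was fitted to log2(value + 1) with 1 mean per group over 43 samples, two-sided, with Benjamini-Hochberg adjustment in each of 22 comparisons. The pseudocount understates differences of low genes. Any member may be named; per comparison up to 5 called members in each direction, by adjusted p, had priority, sample values were set for 12 members, and other genes shown with sample values, such as Ifi44, were picked after seeing them. The alternatives were a pseudocount of 8, no filter, TMM scaling, the compared groups only, a term for samples numbered 46 or above, the hair follicle score as a term, edgeR 4.0.16, leaving out each sample, and, added after seeing the data, leaving out 9 libraries. Steps were tested on simulated data. The members, lists and tests were chosen with earlier results of these data known. 1 pathway gene is not reported here by name.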

Additional observations from a re-analysis of the deposited data

Results flagged for a closer look

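For 12 members the highest and lowest sample of each group of 4 or 5 was checked against Dixon's 95% critical value, in 108 groups, and 7 stood apart. Chance alone marks about 1 in 20 groups. NZM sample 35 without UVB was high for Isg15 (1605 normalised reads, the next sample having 434), for Stat2 (1324 normalised reads, the next sample having 584) and for Ifit1 (809.5 normalised reads, the next sample having 303). NZM acute UVB sample 47 was high for Irf7 (3723 normalised reads, the next sample having 915), and NZM chronic UVB sample 54 for Usp18 (173 normalised reads, the next sample having 72.6). iNZM chronic UVB sample 23 was high for Rsad2 (78.8 normalised reads, the next sample having 33.3) and for Bst2 (248 normalised reads, the next sample having 167).

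The chronic UVB response differed between NZM and WT, by the interaction test of limma, for Eif2ak2 (-0.87 on the log2 scale), Parp9 (-1.32) and Znfx1 (0.85).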

How the results depend on the processing

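No count of called members changed by more than 1.5 times under TMM scaling or without the filter. A pseudocount of 8 gave 7 for acute UVB in NZM and 1 for chronic against acute UVB in iNZM. With the compared groups only, the counts were 1 for acute UVB in WT, 0 and 17 for chronic against acute UVB in iNZM and WT, and 0, 0 and 1 for iNZM against NZM in the 3 regimens. The term for samples numbered 46 or above gave 2 for acute UVB in WT, and edgeR 11 for chronic UVB in WT. With the hair follicle score as a term, counts were 9 and 7 for acute UVB in NZM and WT, 2, 6 and 14 for chronic UVB in NZM, iNZM and WT, 1 for chronic against acute UVB in NZM, 8, 7 and 5 for NZM against WT, 29 for iNZM against NZM after chronic UVB, 28 for iNZM against WT without UVB, and 8 and 3 for the chronic response of NZM against those of WT and iNZM. Without the 9 libraries they were 9 for acute UVB in NZM, 0, 13 and 12 for chronic UVB in NZM, iNZM and WT, 9 and 1 for NZM against WT without and after chronic UVB, and 11 and 5 for iNZM against NZM after acute and chronic UVB. Leaving out 1 replicate gave 3 to 6, 8 to 13 and 2 to 5 for acute UVB in NZM, iNZM and WT, and 3 to 5, 16 to 25 and 5 to 8 for chronic UVB. It gave 0 to 2, 1 to 9 and 6 to 11 for chronic against acute UVB. For NZM against WT it gave 2 to 7, 1 to 6 and 5 to 10, for iNZM against NZM 0 to 3, 8 to 22 and 8 to 22, and for iNZM against WT 11 to 22, 42 to 44 and 37 to 42. For the chronic responses it gave 1 to 3 (NZM against WT) and 0 to 1 (NZM against iNZM), and 0 for both acute responses. The counts over all genes changed too, for example from 5533 to 2372 for chronic UVB in iNZM with the hair follicle score as a term. The cause of these changes was not tested.

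Differences near 0 changed sign between iNZM and NZM. Phf11d after acute UVB was 0.00724 by edgeR and ran from -0.35 to 0.24 when 1 replicate was left out. After chronic UVB Phf11d was 0.0492 by edgeR, 0.18 with the term for samples numbered 46 or above, 0.29 without the 9 libraries and -0.21 to 0.28 when 1 replicate was left out. Ifi35 after chronic UVB was 0.25 without the 9 libraries, and Epsti1 without UVB ran from -0.32 to 0.0651 when 1 replicate was left out. None of these was called. In all, 216 differences of single members were followed, many of them between iNZM and NZM not called in the main fit and so without a call to lose. Among the called ones, 54 lost their call with the compared groups only, 35 without the 9 libraries and 2 under TMM scaling. No paired analysis was possible because the sample numbers in the labels are not shared between groups.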
